A study of Mus musculus with 6 samples.

Results

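Corticosteroid signalling genes were followed in whole colon of wild-type mice and of mice that lack NHE3 (gene Slc9a3), which exchanges sodium for protons in the apical membrane of the gut. The set comprised 10 genes: the mineralocorticoid receptor Nr3c2, the glucocorticoid receptor Nr3c1, the 11-beta-hydroxysteroid dehydrogenases Hsd11b1 and Hsd11b2, and the hormone-responsive genes Fkbp5, Zbtb16, Klf9, Dusp1, Per1 and Tsc22d3. They were chosen by name out of 18193 genes, with earlier results of these data known. Every probe set whose platform annotation names 1 of them alone was taken, 28 probe sets in all. A probe set is a group of short oligonucleotide probes on the Affymetrix MOE430 2.0 array that reads 1 transcript or, for some probe sets, several. Its signal is given on the linear scale the authors deposited. The groups were NHE3+/+ (3 arrays) and NHE3-/- (3 arrays), both from mice of 6 to 8 weeks of age, with no treatment listed in the labels. The labels do not give the sex, the genetic background, the part of Slc9a3 that is disrupted or the number of animals per array, so the p-values rest on sample-to-sample spread alone, and that spread may be technical.

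Aldosterone and the glucocorticoids act through closely related nuclear receptors that bind the same DNA elements. The mineralocorticoid receptor also binds glucocorticoids with high affinity, and in sodium-absorbing epithelia such as the distal colon Hsd11b2 inactivates glucocorticoids inside the cell, which leaves the receptor to aldosterone. Hsd11b1 mainly works in the opposite direction and regenerates active glucocorticoid. The 6 target genes are induced through the glucocorticoid receptor in many tissues, and several of them also respond to the mineralocorticoid receptor or to other signals.

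Of the 28 probe sets, 24 passed a filter on dim signals and entered limma's test over 27024 probe sets. With a threshold of 0.05 on the Benjamini-Hochberg adjusted p, 6 of the 24 were higher in NHE3-/- colon and 0 were lower. Over all probe sets tested, 4.97% were called higher and 6.24% lower, 11.2% in either direction. At an unadjusted p under 0.05 the counts were 8 higher and 1 lower. For such unadjusted counts, here and in the lists below, no share over all probe sets was taken. They are therefore not read as a result. The 6 called probe sets belong to 5 genes: Hsd11b2, Fkbp5, Zbtb16, Klf9 and Dusp1. Signals of the 2 genotypes did not overlap for 9 tested probe sets that were higher and 2 that were lower, against backgrounds of 12.2% and 20.1% of all probe sets tested. The median log2 fold change was 0.25 over the 24 and -0.10 over all probe sets tested. With array medians set equal the latter was 0.0090. Members below the filter took no part in these counts.

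**Figure D1:**
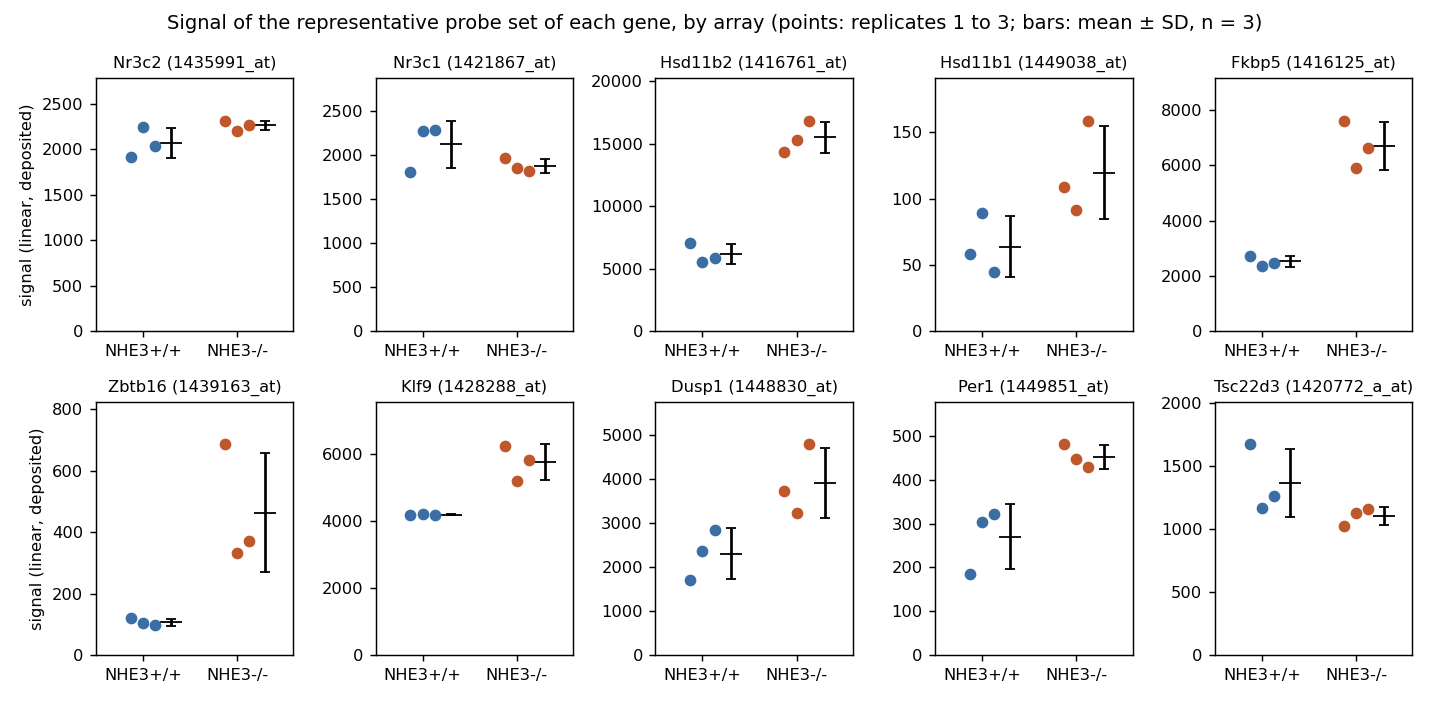
Deposited linear signal (vertical axes from 0) of the brightest probe set of each gene on the 3 NHE3+/+ arrays (blue) and the 3 NHE3-/- arrays (orange), with the mean ± SD beside the points. Hsd11b2 and Fkbp5 rose more than 2.5-fold with no overlap between genotypes, while the receptors Nr3c2 and Nr3c1 had overlapping signals.

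Several properties of the arrays touch these results. Log2 signals correlated across probe sets at 0.965 to 0.973 within genotypes and 0.932 to 0.959 between them. NHE3-/- arrays 1 and 2 carried signal for Xist, the RNA of the inactive X chromosome (1562 and 1405), whereas NHE3-/- array 3 (80.8) and the NHE3+/+ arrays (142 to 208) did not stand out. The Y-linked Eif2s3y was present on all 6 arrays, at 933 and 1088 on NHE3-/- arrays 1 and 2, 1355 on array 3 and 1434 to 1809 in NHE3+/+. Kdm5d, also Y-linked, read 341.3 and 405.5 on arrays 1 and 2 and 654.2 to 783.6 on the others. The Xist signal thus stood out on NHE3-/- arrays alone. For arrays 1 and 2 an effect of sex cannot be told apart from that of genotype. Among markers of absorptive colonocytes, 5 of 10 tested were higher and 0 lower in NHE3-/- colon, and their summed signal ran from 211870 to 259629 in NHE3+/+ and from 267903 to 332509 in NHE3-/-. Of 7 tested markers of dividing and crypt base cells, 6 were lower (summed signal 7438 to 8151 and 3921 to 5057). Of 4 tested adipose markers, 3 were lower and 1 higher (summed signal 3444 to 6650 and 1616 to 2038), and 1 of the 3, Adipoq, passed the filter on dim signals through NHE3+/+ alone. Of the 8 smooth muscle markers, Acta2 read 779.5 to 1324 and Actg2 115.9 to 427.5 over the 6 arrays, while Myh11 (74.2 to 186.2) and Des (55.2 to 151.8) lay near the median signal of all probe sets (97.8 to 121.4). In such whole-tissue RNA, fewer cells of a type and less RNA per cell cannot be told apart. The brighter Slc9a3 probe set had a log2 fold change of -0.42 (SE 0.16; limma adjusted p = 0.120) and the dimmer 0.76 (SE 0.39; adjusted p = 0.230). The first was called lower without NHE3-/- array 1 (-0.61, adjusted p = 0.0199), and its change was -0.72 with NHE3-/- array 3 alone. The second was called higher with a replicate block (0.76, adjusted p = 0.0446). It is not known whether either reads the disrupted part.

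The receptor transcripts did not pass the test in either direction. Nr3c2, read by 1 probe set, had signals of 1919, 2244 and 2036 on NHE3+/+ arrays 1, 2 and 3 and 2311, 2204 and 2270 on NHE3-/- arrays 1, 2 and 3. The groups overlapped through NHE3+/+ array 2, and the log2 fold change was 0.13 (95% interval -0.11 to 0.37; limma adjusted p = 0.464). These values do not show equality, but under the deposited scaling the interval holds no rise beyond 0.37 on the log2 scale. With array medians set equal the log2 fold change was 0.25 (limma adjusted p = 0.316), so that bound depends on the scaling.

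Nr3c1 was read by 6 probe sets, of which 5 were tested and 0 called (1 was lower at an unadjusted p under 0.05). The brightest, 1421867_at, had signals of 1810, 2267 and 2284 in NHE3+/+ and 1961, 1850 and 1814 in NHE3-/- colon, with a log2 fold change of -0.17 (95% interval -0.44 to 0.10; limma adjusted p = 0.404). Probe set 1457635_s_at was the only Nr3c1 probe set whose groups did not overlap, at 758.8, 504 and 710.4 in NHE3+/+ and 496.1, 419 and 498.5 in NHE3-/- (log2 fold change -0.44; limma adjusted p = 0.136). On these arrays the suffix s marks probes shared by transcripts of more than 1 gene, x marks probes that can cross-hybridise, and a marks alternative transcripts of 1 gene. The other 3 tested Nr3c1 probe sets had log2 fold changes of -0.067, 0.12 and -0.12. The first of these, 1421866_at, turned to 0.047 with array medians set equal and to 0.072 with quantile normalization. The probe set below the filter, 1431378_at, gave signals from 3.1 to 130.4 with no pattern by genotype.

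The mineralocorticoid receptor was next set against the glucocorticoid receptor within each array, which cancels any scaling shared by both. Levels of different probe sets are not comparable, so only the difference between genotypes is read. The log2 difference of Nr3c2 and 1421867_at was 0.08, -0.01 and -0.16 on the NHE3+/+ arrays and 0.23, 0.25 and 0.32 on the NHE3-/- arrays. All 3 NHE3-/- arrays lay above all 3 NHE3+/+ arrays, with means of -0.03 ± 0.12 and 0.27 ± 0.05 (SD, n = 3 each). The shift of 0.30 had an exact permutation p of 0.1 (two-sided), and 3 against 3 arrays cannot give a smaller one. With the mean over all probe sets of each gene the shift was 0.15 (exact permutation p = 0.2).

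Of the 2 dehydrogenase genes, Hsd11b2 was called and Hsd11b1 was not. Hsd11b2 rose from signals of 7066, 5564 and 5865 on the NHE3+/+ arrays to 14336, 15325 and 16854 on the NHE3-/- arrays. The lowest NHE3-/- signal was above the highest NHE3+/+ signal. Means were 6165 ± 795 and 15505 ± 1269 (SD, n = 3 each), a ratio of 2.52 and a log2 fold change of 1.33 (SE 0.11; limma adjusted p = 6.85e-05). The rise was called under every alternative with more than 1 array per group. Over all 15 alternatives tried, its log2 fold changes ran from 1.19 to 1.45. NHE3-/- array 3, without the Xist signal, was the highest of its group, and that array alone against NHE3+/+ gave 1.45. With 1 array in a group the fit holds no spread within NHE3-/-, so only the size of the change is given. Hsd11b2 is an epithelial gene. The summed colonocyte markers also had their lowest NHE3-/- value on array 1 and their highest on array 3 (267903, 277229 and 332509), and their part in this result was not tested.

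Hsd11b1 was dim, at the 47.8th percentile of mean signal. Its signals were 58, 89 and 44.7 in NHE3+/+ and 108.7, 91.6 and 159 in NHE3-/- colon. The groups did not overlap, but NHE3+/+ array 2 and NHE3-/- array 2 lay side by side. The log2 fold change of 0.67 (95% interval -0.02 to 1.35; limma adjusted p = 0.192) did not pass, nor did it under any of 14 alternatives, in which it ran from 0.41 to 1.02. Adipose and macrophage cells are known to express Hsd11b1. Of 4 tested adipose markers 3 fell in NHE3-/- colon, among them Fabp4 and Lpl, and 1, Cidec, rose (log2 fold change 0.97). Of 7 tested markers of macrophages and dendritic cells 1, Cd14, rose (summed signal 3683 to 6614 and 5534 to 7868). The part of these cells in the Hsd11b1 values was not tested.

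Within arrays, the log2 difference of Hsd11b2 over Hsd11b1 was 6.31, 5.54 and 6.28 in NHE3+/+ and 6.68, 6.96 and 6.47 in NHE3-/- colon. The groups did not overlap, and the shift was 0.66 (two-sided exact permutation p = 0.1, again the smallest possible). It was 0.41 without NHE3+/+ array 2 (exact permutation p = 0.2) and 0.44 with quantile normalization (exact permutation p = 0.3). The shift also depended on the pseudocount, the constant added before taking log2. It was 0.49 with the pseudocount at the 10th percentile (exact permutation p = 0.3) and 0.91 at the 50th (exact permutation p = 0.1). A difference in change between the enzymes is thus not established at this number of arrays.

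**Figure D2:**
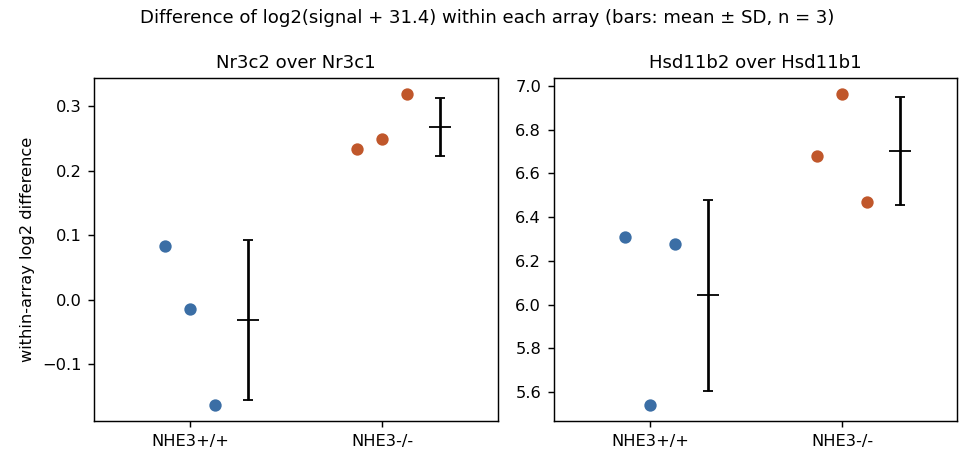
Difference of log2(signal + 31.4) within each array for Nr3c2 over Nr3c1 (left) and Hsd11b2 over Hsd11b1 (right), with points for single arrays and bars for the mean ± SD; the vertical axes do not start at 0. The NHE3-/- points lie above the NHE3+/+ points in both panels, by 0.30 and 0.66 between means.

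Promoter windows from the RefSeq table of build GRCm38.p6 were analysed for 7 of the 10 genes. The other members, among them the glucocorticoid receptor gene, took no part in the motif counts. Their absence here does not show that sequence was unavailable for them. Each window shown holds the 250 bases before an annotated transcript start, 5′ to 3′ on the strand of the gene. They are shown for the called genes that had a window, for Per1, whose test lay at the threshold, and for the Tsc22d3 start that holds the only 6-base hormone element among the windows. Capitals mark matches on either strand to AGAACA, the 6-base arm of the hormone response element, to the E-box CACGTG, which clock and Myc-family factors bind, and to the cyclic AMP response element TGACGTCA or its core TGACG.
Fkbp5, chr17:28486150-28486399, minus strand: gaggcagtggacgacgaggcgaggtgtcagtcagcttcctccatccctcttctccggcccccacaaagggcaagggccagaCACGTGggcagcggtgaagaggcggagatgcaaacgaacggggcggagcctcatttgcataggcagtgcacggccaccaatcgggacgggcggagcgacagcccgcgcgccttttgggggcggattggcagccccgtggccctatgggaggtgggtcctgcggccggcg
Klf9, chr19:23140976-23141225, plus strand: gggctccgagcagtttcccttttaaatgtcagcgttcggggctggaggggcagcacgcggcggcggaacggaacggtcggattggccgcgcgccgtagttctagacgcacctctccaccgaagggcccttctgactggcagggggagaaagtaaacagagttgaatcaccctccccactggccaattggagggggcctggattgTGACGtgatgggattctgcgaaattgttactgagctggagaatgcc
Dusp1, chr17:26508473-26508722, minus strand: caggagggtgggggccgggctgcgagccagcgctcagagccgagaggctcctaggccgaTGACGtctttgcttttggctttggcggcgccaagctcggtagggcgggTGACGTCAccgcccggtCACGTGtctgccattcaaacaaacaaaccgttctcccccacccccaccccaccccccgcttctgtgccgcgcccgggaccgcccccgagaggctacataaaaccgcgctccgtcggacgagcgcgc
Per1, chr11:69098699-69098948, plus strand: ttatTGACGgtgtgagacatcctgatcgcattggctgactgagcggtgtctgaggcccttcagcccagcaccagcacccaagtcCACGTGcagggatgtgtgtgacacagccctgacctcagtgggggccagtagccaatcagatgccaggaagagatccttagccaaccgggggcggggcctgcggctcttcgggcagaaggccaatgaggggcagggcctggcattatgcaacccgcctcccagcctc
Tsc22d3, chrX:140600523-140600772, minus strand: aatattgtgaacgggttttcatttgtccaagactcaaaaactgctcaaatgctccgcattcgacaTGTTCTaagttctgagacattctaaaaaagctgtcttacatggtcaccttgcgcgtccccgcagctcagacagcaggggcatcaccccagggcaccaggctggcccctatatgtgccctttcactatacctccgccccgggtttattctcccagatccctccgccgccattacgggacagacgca

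The full palindromic element, AGAACA followed after 3 bases by TGTTCT, was in 0 of the 10 windows of these 7 genes, and in 3 of 32851 windows of all genes (0.00913%). The 6-base arm alone was in 1 of the 10, against 16.1% of all windows. An E-box was in 3 of the 10, those of Fkbp5, Dusp1 and the upstream Per1 start, against 6.02% of all windows. Their first bases lie 169, 126 and 166 bases before the start. The cyclic AMP core was in 5 of the 10 against 17.8%, and the full 8-base form was in the Dusp1 window, against 1.55% of all windows. The core is part of the full form, so these counts overlap. A match is a string of letters and not a bound site, and regions outside these windows were not analysed here.

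Among the target genes, Fkbp5 rose in both of its tested probe sets. It encodes a co-chaperone that joins the receptor's Hsp90 complex and lowers its hormone affinity, and its induction is a feedback of the receptor on itself. Probe set 1416125_at had signals of 2737, 2353 and 2474 in NHE3+/+ and 7615, 5895 and 6609 in NHE3-/- colon, a ratio of means of 2.66 and a log2 fold change of 1.40 (SE 0.12; limma adjusted p = 6.34e-05). Probe set 1448231_at had 1710, 1273 and 1273 against 4411, 3735 and 3897, a log2 fold change of 1.49 (SE 0.14; limma adjusted p = 9.50e-05). Both probe sets gave the same order among the NHE3-/- arrays, with array 1 highest and array 2 lowest, and neither had overlapping groups. Both were called under every alternative with more than 1 array per group. Over all 15 alternatives their log2 fold changes lay between 1.30 and 1.63. A further Fkbp5 probe set, 1447736_at, stayed between 1.3 and 5.8 on all arrays and was not tested.

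Zbtb16, a zinc finger transcription factor, had the largest log2 fold change of the 24 tested probe sets. Probe set 1439163_at read 120, 103.4 and 97.2 in NHE3+/+ and 686.5, 333.1 and 370.6 in NHE3-/- colon. NHE3-/- array 1 was far above the other NHE3-/- arrays, and all 3 were above NHE3+/+. The log2 fold change was 1.77 (SE 0.26; limma adjusted p = 0.00208). It stayed called under every alternative with more than 1 array per group, and its values ran from 1.37 to 1.97 over all 15. Probe set 1419874_x_at was below the filter, at 41.4, 2.8 and 5.3 against 135.6, 85.1 and 173.6, also without overlap, and was called higher when no filter was applied. Probe set 1427638_at, also below the filter, ran from 9.7 to 118.2 and from 8.5 to 152.4, so its groups overlapped.

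Klf9, a Kruppel-like factor that responds to glucocorticoids and thyroid hormone, was read by 7 probe sets, and 1 was called. This was the brightest, 1428288_at, at 4177, 4212 and 4181 in NHE3+/+ and 6248, 5177 and 5823 in NHE3-/- colon (log2 fold change 0.45, SE 0.10; limma adjusted p = 0.0182). The NHE3+/+ arrays agree within 19.2 (SD, n = 3), and the groups did not overlap. Probe set 1436952_at also had no overlap (212.6, 218.2 and 182.3 against 338.6, 278.4 and 290.4) but missed the threshold, with a log2 fold change of 0.50 (limma adjusted p = 0.112). The other 5 had overlapping groups and log2 fold changes from -0.073 (1452723_at) to 0.31 (1456341_a_at). The lower end, 1452723_at, turned to 0.0098 with array medians set equal, and 1436952_at was called with quantile normalization (0.67, adjusted p = 0.0482). The call of 1428288_at was lost without NHE3+/+ array 2 (0.45, adjusted p = 0.0554) or 3 (0.45, adjusted p = 0.0515), and without NHE3-/- array 1 (0.39, adjusted p = 0.0741) or 3 (0.44, adjusted p = 0.0557). It was also lost in a limma fit without a mean-variance trend (adjusted p = 0.105). With NHE3-/- array 3 alone the log2 fold change of 1428288_at was 0.47.

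Dusp1 encodes a phosphatase that switches off MAP kinases. Its signals were 1699, 2378 and 2850 in NHE3+/+ and 3735, 3232 and 4799 in NHE3-/- colon. The groups did not overlap, and the log2 fold change was 0.77 (SE 0.19; limma adjusted p = 0.0258). The call was lost without NHE3+/+ array 1 (0.57, adjusted p = 0.0620) or 2 (0.80, adjusted p = 0.0683), and without NHE3-/- array 1 (0.79, adjusted p = 0.0576) or 3 (0.61, adjusted p = 0.0897). The fit without a trend gave an adjusted p = 0.113.

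Per1, a repressor of the circadian clock that glucocorticoids also induce, lay at the threshold. Its signals were 184.3, 304.3 and 322 in NHE3+/+ and 481.5, 446.9 and 429.3 in NHE3-/- colon. All 3 NHE3-/- arrays were higher, and NHE3+/+ array 1 was the lowest. The log2 fold change was 0.71 (SE 0.21; limma adjusted p = 0.0513). It passed in 4 of 15 alternatives: with array medians set equal (0.83, adjusted p = 0.0259), quantile normalization (0.86, adjusted p = 0.0205), a larger pseudocount (0.59, adjusted p = 0.0472) or a stricter filter (0.71, adjusted p = 0.0421). In the other 11 it did not. The change was 0.64 with NHE3-/- array 3 alone, and the smallest was 0.49 without NHE3+/+ array 1.

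Tsc22d3, the X-linked gene of the glucocorticoid-induced leucine zipper protein, was not called in either direction. Its 4 probe sets were all tested and 0 were called (0 also at an unadjusted p under 0.05). The brightest, 1420772_a_at, was lower in NHE3-/- colon without overlap, at 1675, 1165 and 1262 against 1026, 1131 and 1158 (log2 fold change -0.28, SE 0.15; limma adjusted p = 0.240). Probe set 1425281_a_at pointed the other way, at 1430, 908.9 and 730.8 against 1271, 1240 and 1358 (0.38, SE 0.20; limma adjusted p = 0.254), and was called without NHE3+/+ array 1 (0.64, adjusted p = 0.0238). The ratio of the second to the first signal was 0.854, 0.780 and 0.579 on the NHE3+/+ arrays and 1.24, 1.10 and 1.17 on the NHE3-/- arrays. These ratios do not overlap between genotypes, but this pair was picked after the values were seen, so no test is given. The remaining probe sets, 1425557_x_at and 1444365_at, had overlapping groups and log2 fold changes of 0.14 and 0.38.

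**Figure D3:**
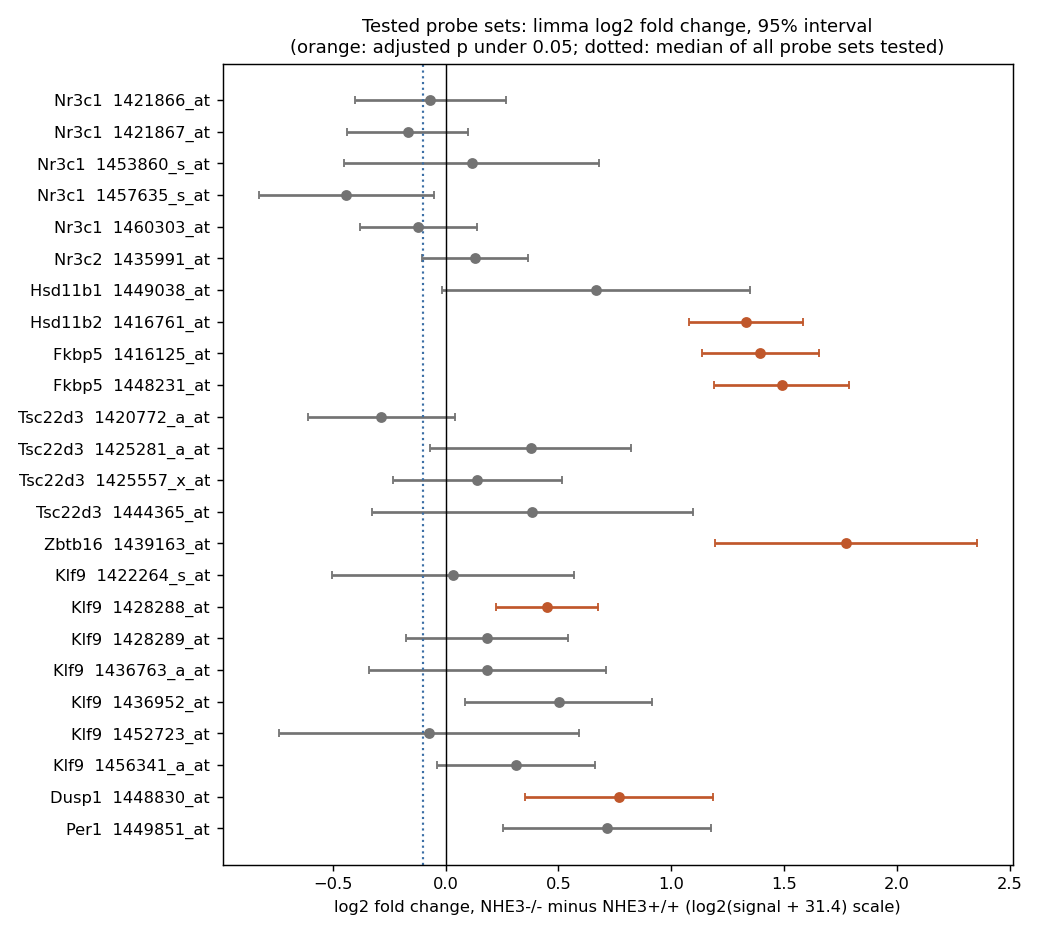
Log2 fold change (NHE3-/- minus NHE3+/+, horizontal axis, log2(signal + 31.4) scale) of the 24 tested probe sets of the 10 genes, with limma's 95% intervals; orange marks an adjusted p under 0.05 and the dotted line the median of all probe sets tested (-0.10). The probe sets of Fkbp5 and the Hsd11b2 probe set stand at 1.33 to 1.49, Zbtb16 at 1.77, and all Nr3c1 and Tsc22d3 probe sets are uncalled.

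The profiles most like Hsd11b2 and Fkbp5 over the 6 arrays were sought among 12554 genes, by the root mean square difference of log2 values centred on each gene's mean. For Hsd11b2 these were Glod5 (0.075), the sorting nexin gene Snx16 (0.099) and the vesicle fusion gene Vamp4 (0.099). For Fkbp5 they were the aspartoacylase gene Aspa (0.095), Snx16 (0.113) and the transferrin receptor gene Tfrc (0.122). Tfrc signals, for instance, were 3432, 3399 and 3547 in NHE3+/+ and 9072, 8227 and 10066 in NHE3-/- colon. The ranking of such neighbours was unstable. When any of the 6 arrays was left out, 1 of the 3 neighbours of Hsd11b2 remained, and for Fkbp5 0 remained without NHE3+/+ array 2, 2 without NHE3-/- array 3 and 1 without any other array.

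Other genes of the hormone pathway were read through lists drawn up by function, with 1 probe set per gene and the members above left out. The lists were chosen with earlier results of these data known. Their counts therefore describe these arrays and are not independent support for a hormone response. Sgk1 and Per2 each stand in 2 lists. Over all 12554 genes tested this way, 6.38% were called higher and 7.51% lower, and the median log2 fold change was -0.07. Among other glucocorticoid-responsive genes, 13 of 32 tested rose and 0 fell (3 lower at an unadjusted p under 0.05 in limma), with a list median of 0.39. Saa3, an acute-phase protein, went from 508 ± 96.3 to 1980 ± 485 (log2 fold change 1.88), and the metallothioneins Mt1 and Mt2, which bind zinc and copper, changed by 1.84 and 1.68. The transcription factor Cebpd read 1015, 1215 and 1027 in NHE3+/+ and 2698, 2733 and 2689 in NHE3-/- colon (1.30, SE 0.11; limma adjusted p = 7.87e-05). Per2 (0.03), Errfi1 (-0.0032) and Anxa1 (0.26) are list members that were not called. The 3 that were lower at an unadjusted p under 0.05 were Lpin1 (-0.58), Pck1 (-0.43) and Pik3r1 (-0.25), also not called. Without a mean-variance trend 8 rose, and 11 to 14 did with any 1 array left out. Saa3 and Cebpd also respond to inflammatory signals. The neutrophil marker S100a8 read 59, 46.2 and 41.2 in NHE3+/+ and 3034, 718 and 1356 in NHE3-/- colon and passed the filter through NHE3-/- alone, while Ngp, the other neutrophil marker tested, had a log2 fold change of -0.025 (limma adjusted p = 0.966). Their part in these values was not tested.

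Among genes of aldosterone-responsive sodium and potassium transport, 7 of 14 tested rose and 2 fell, with a list median of 0.41. The sodium channel subunits Scnn1g and Scnn1b, the sodium pump regulator Fxyd4 and the proton-potassium pump Atp12a had the largest changes, at log2 fold changes of 5.97, 2.26, 5.17 and 3.37. Scnn1g signals were 5.3, 15 and 16 in NHE3+/+ and 1953, 2809 and 3470 in NHE3-/- colon, and all NHE3+/+ signals were under the pseudocount of 31.4, so its log2 value has no exact meaning as a fold. It passed the filter through NHE3-/- alone, and of the other 13 tested genes 6 rose and 2 fell. Kcnn4, a calcium-activated potassium channel, and Cnksr3, a scaffold of the sodium channel, were the genes that fell (-1.25 and -0.41). The number that fell was 1 in 11 of 15 alternatives, among them those without NHE3+/+ array 2 or 3 and without NHE3-/- array 1, 2 or 3.

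Receptor chaperones and coregulators stayed close to the background. Of 18 tested, 0 rose and 1 fell (3 higher and 2 lower at an unadjusted p under 0.05 in limma), and the list median was 0.08. The called gene was Nrip1, a corepressor of nuclear receptors, at 4306, 4205 and 4234 in NHE3+/+ and 3214, 2842 and 3010 in NHE3-/- colon (log2 fold change -0.49; limma adjusted p = 0.0102). It was not called with array medians set equal (-0.37, adjusted p = 0.131) or without a trend (-0.49, adjusted p = 0.0788). With NHE3-/- array 3 alone its change was -0.49.

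Of 12 tested genes of corticosteroid synthesis, metabolism and export, 1 rose and 0 fell (3 lower at an unadjusted p under 0.05 in limma). Cyp11a1, whose enzyme cleaves the cholesterol side chain in the first step of steroid synthesis, read 50.8, 98.1 and 46.9 in NHE3+/+ and 314.3, 250.6 and 257.9 in NHE3-/- colon. The groups did not overlap, and the log2 fold change was 1.69 (SE 0.27; limma adjusted p = 0.00297). Cyp11b1, which makes corticosterone, was dim (47.7, 11.2 and 43.4 against 110, 86.8 and 122.8) and missed the threshold, with a log2 fold change of 1.12 (limma adjusted p = 0.0654). It passed the filter on dim signals through NHE3-/- alone. In all, 3 of the 12 tested genes passed through 1 group alone, and of the other 9, 1 rose and 0 fell. The number that fell ran from 0 to 2 over the alternatives, and was 2 without NHE3-/- array 1. With NHE3-/- array 3 alone, Cyp11a1 had a log2 fold change of 1.62.

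Clock genes and immediate early genes were included because Per1 and Dusp1 also belong to those groups. Of 18 tested clock genes, 0 rose and 0 fell in limma (2 higher and 0 lower at an unadjusted p under 0.05), with a list median of 0.22 and log2 fold changes from -0.27 for Nr1d2 to 0.45 for Arntl. Of 23 tested immediate early genes, 3 rose and 1 fell, with a list median of -0.066. With array medians set equal 5 rose. Zfp36, which destabilises cytokine messages, had a log2 fold change of 0.74, the phosphatase genes Dusp5 and Dusp6 1.49 and 0.61, and the orphan receptor gene Nr4a2 -1.23. Fos (0.37), Jun (0.18), Egr1 (-0.27) and Ier2 (-0.092) were not called. None of the 4 calls held without a mean-variance trend (adjusted p = 0.0542 for Zfp36, 0.0619 for Dusp5, 0.138 for Dusp6 and 0.0523 for Nr4a2). Nr4a2 also lost its call without NHE3+/+ array 2 (adjusted p = 0.0521) or 3 (adjusted p = 0.0669). With NHE3-/- array 3 alone the log2 fold changes were 0.71 for Dusp5 and -0.82 for Nr4a2. Dusp6 lost its call without any of NHE3+/+ arrays 1, 2 or 3 or NHE3-/- array 2 or 3 (log2 fold changes 0.65, 0.59, 0.59, 0.60 and 0.42).

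Of 4 tested genes of the other steroid receptors in the same subfamily, 0 rose and 1 fell (2 higher at an unadjusted p under 0.05 in limma, and 2 called with array medians set equal). Of the 2 at an unadjusted p, 1, Esrrg, passed the filter on dim signals through NHE3-/- alone. Of the other 3 tested genes 0 rose and 1 fell. The estrogen receptor gene Esr1 had signals of 292.4, 340.1 and 400.4 in NHE3+/+ and 173.1, 193.1 and 148.2 in NHE3-/- colon (log2 fold change -0.89; limma adjusted p = 0.0179). It was not called without NHE3+/+ array 2 (-0.89, adjusted p = 0.0569) or 3 (-0.78, adjusted p = 0.0752), or without NHE3-/- array 3 (-0.80, adjusted p = 0.0577). With NHE3-/- array 3 alone its change was -1.05.

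**Figure D4:**
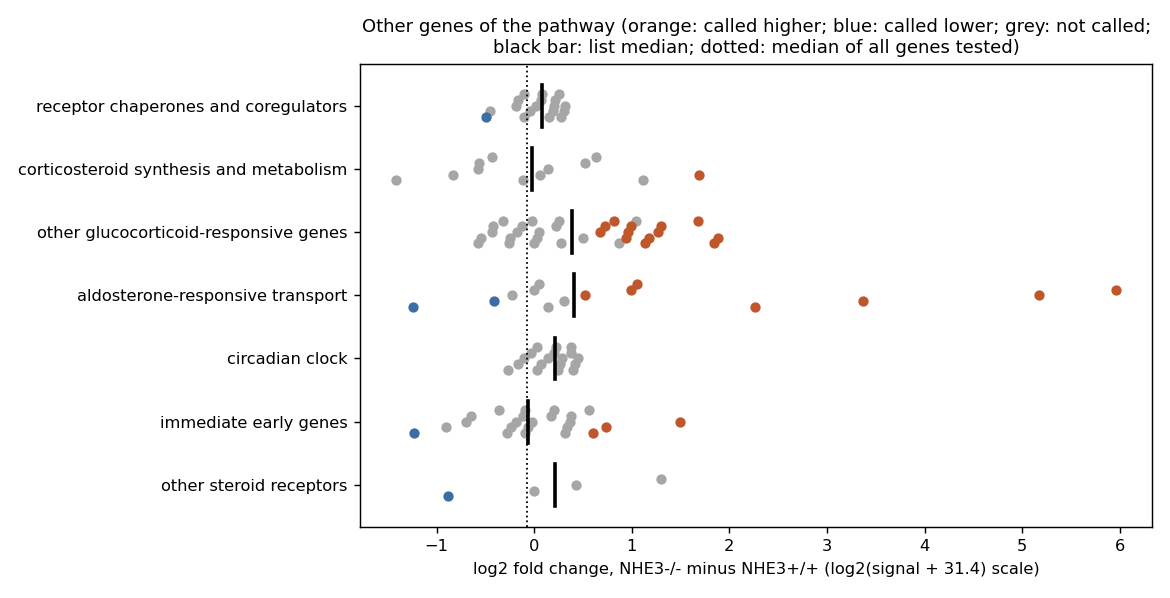
Log2 fold change (NHE3-/- minus NHE3+/+, horizontal axis) of each tested gene in the 7 lists, with called genes in orange (higher) and blue (lower), a black bar at each list median and a dotted line at the median of all genes tested (-0.07). The glucocorticoid-responsive list has 13 called genes that rose of 32 and the aldosterone-responsive list 7 of 14, with Sgk1 in both, and the clock list has 0. The lists were chosen with earlier results of these data known.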

How the data were processed

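Total RNA from whole colon of 3 NHE3+/+ and 3 NHE3-/- samples was labelled with biotin and hybridised to 1 array each. The authors deposited 1 intensity per probe set and array, not on a log scale. Per the submitters' processing notes it comes from GCOS, whose version and settings are not given in the sources used here. After trimming 2% from each end the mean was 500.003 or 500.004 on each array, a scaling that fixes this mean but not the median (97.8 to 121.4). No detection calls or scanner files were used here.

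Tests used log2(signal + 31.4), where 31.4 is the 25th percentile over the whole table, and fold changes understate those of dim transcripts. Of 45101 probe sets, 64 controls and those under the 40th percentile of mean log2 value were left out. limma 3.58.1 in R 4.3.3 (lmFit, eBayes with trend, genotype only, two-sided) was fitted to 27024 probe sets and tested on simulated data first. The Benjamini-Hochberg adjustment ran over all of them. Gene names came from the platform annotation (34958 probe sets name 1 gene, 932 several, 9211 none), with symbols updated through RefSeq for 34754. Where a gene needed 1 probe set, the brightest over all 6 arrays was used. The text names all members, Slc9a3, and in each of 7 lists up to 4 called genes of largest change; other list genes and marker genes named were chosen after their values were seen. Members and lists were chosen with earlier results of these data known. Same-numbered arrays did not deviate together (correlations 0.0264, -0.0376 and 0.00337 over probe sets), so the numbers were not taken as pairs. Arrays give no read depth, and their number limits the precision.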

Additional observations from a re-analysis of the deposited data

How the results depend on the processing

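The alternatives were 2 scalings, 2 pseudocounts, 2 filters, a fit without trend, leaving out each array, a replicate block and NHE3-/- array 3 alone. Of 965 values so obtained, 840 kept direction and side of the threshold, or lay within 1.5 times a count. The exact tests of the 2 within-array ratios cannot go below 0.05, so for them only the direction could differ. The total also holds values from NHE3-/- array 3 alone. Over all probe sets, 738 were lower (and 1595 higher, 68.4% of calls against 44.3%) with medians set equal. That scaling moved the median log2 fold change from -0.10 to 0.0090. Without trend 511 were higher and 558 lower, and 14 list genes were higher and 2 lower, against 23 and 5. NHE3-/- array 3 alone gave 767 higher. Leaving out 1 array gave 839 to 1211 higher, 775 to 1385 lower, and 2 to 6 list genes lower. Member probe sets called higher numbered 4 to 8 over the alternatives, and 4 without NHE3+/+ array 2 or NHE3-/- array 1 or 3. The replicate block gave 6, with 1156 higher and 1384 lower in all; it changed no member's call (outside them, the dimmer Slc9a3 probe set was then called), and with 3 pairs its exact sign-flip test cannot go below p = 0.25 for the ratios. Directions reversed only for uncalled probe sets. Nr3c1 1421866_at became 0.047 (medians equal) and 0.072 (quantile), and ran from -0.13 to 0.036 with 1 array left out. Nr3c1 1453860_s_at ran from -0.088 to 0.26 and was -0.075 with NHE3-/- array 3 alone. Klf9 1422264_s_at ran from -0.19 to 0.28 and was -0.46 with that array alone, where 1428289_at was -0.073. Klf9 1436763_a_at ran from -0.086 to 0.38, and 1452723_at from -0.15 to 0.016 and was 0.0098 with medians equal. The cause of these shifts was not tested.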
